A study of Mus musculus with 18 samples.

Results

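The change in RNA abundance between day 2 and day 4 of oligodendrocyte differentiation was compared between control and Thap1 null cells. The data were 12 of the 18 libraries of the series, 1 library per clone and day, with 3 clones of each genotype: D7, D3 and E8 are control, and 3F, D6 and 7F are Thap1 null. All were mouse oligodendrocyte progenitor cell (OPC) lines derived from primary neural stem cells, and all were kept in oligodendrocyte differentiation medium with the thyroid hormone T3 for 2 days (DIV2) or 4 days (DIV4). The 6 progenitor-stage libraries were not used, because noncoding features held most of the deposited values in the control ones. Each clone is 1 line, and the labels do not say how the null allele was made, so the spread between clones of a genotype holds clonal differences as well as culture and library differences. For each gene, the log2 change from DIV2 to DIV4 was taken within each clone, and the interaction is the mean change of the null clones minus the mean change of the control clones.

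THAP1 is a zinc-finger transcription factor. In oligodendrocyte differentiation, progenitors leave the cell cycle, pass a premyelinating stage and then make the proteins and lipids of myelin, for which cholesterol is a limiting component. Thyroid hormone promotes this exit and maturation. Core histone genes are transcribed in S phase together with DNA synthesis, and most of their mRNAs carry no poly(A) tail, so they are seen in libraries from total RNA, as used here, and are largely missed by poly(A) selection.

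Values are TPM (an abundance per unit of transcript length that adds up to the same sum in each library), summed by gene over protein-coding transcripts and rescaled between libraries, and TPM keeps no sequencing depth, so the depth of each library is unknown. Protein-coding transcripts held 20.8% of the deposited TPM in control D7 at DIV4 and 23.9% to 38.8% elsewhere. The RNA of the signal recognition particle took up 59.1% in that library, 50.2% to 51.4% in the null DIV4 libraries, and 37.6% to 43.4% in the other 8. Clone D7 also stood apart in its markers, being lowest in astrocyte genes and highest in myelin genes at DIV4, so many of the results below are also given without it.

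The targeted gene was lower in every null library. Thap1 (ENSMUSG00000037214, chr8:26158141-26164151, GRCm38) went from 2.82 to 5.38 in D7, 3.61 to 4.22 in D3 and 4.03 to 3.25 in E8 rescaled TPM in control. Null levels of Thap1 went from 0.498 to 0.662 in 3F, 0.932 to 1.09 in D6 and 0.992 to 0.283 in 7F. The genotypes did not overlap on either day, and the interaction was -0.35 (SE 0.32, limma adjusted p = 0.641), or -0.0902 without D7. Gusb, which encodes the lysosomal enzyme beta-glucuronidase, was between 3.97 and 9.61 rescaled TPM in the 6 control libraries and between 0.0698 and 0.477 in the 6 null libraries, with an interaction of -0.28 (SE 0.24, limma adjusted p = 0.613). Both genes were lower in null on both days, and neither interaction passed the test. The oligodendrocyte lineage markers Sox10, Olig1 and Mbp were detected in all 12 libraries, with Sox10, a lineage transcription factor, at 71.8 to 181 rescaled TPM.

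Across 10773 genes with a mean of at least 1 rescaled TPM, none passed an adjusted p of 0.05 for the interaction in the limma fit (0%), and the smallest adjusted p was 0.0549. An adjusted p under 0.1 was reached by 31 genes, and an unadjusted p under 0.05 by 1725. Of these, 933 genes (8.66% of those tested) had a lower change in null and 792 (7.35%) a higher one. The 3 null changes lay entirely below the 3 control changes for 1186 genes (11%) and entirely above them for 1387 (12.9%). Within genotypes, 211 genes rose (1.96%) and 172 fell (1.6%) from DIV2 to DIV4 in control, whereas 807 rose (7.49%) and 995 fell (9.24%) in null. Counts of list members given below are read against these shares of all genes. Rises made up 44.8% of the null calls, but 83.2% when coding TPM was scaled to its own library sum and 68.4% in the deposited TPM. The corresponding shares in control were 55.1%, 71% and 81.4%. Scaling to the library sum shifted the median change of all genes from -0.0193 to 0.20 in null and the median interaction from 0.0157 to 0.15, so interactions on that scale are read against this shift.

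Most genes that changed in both genotypes changed the same way: 175 genes passed in both genotypes with one direction and 8 with opposite directions. The mean changes of control and null correlated across genes with Pearson's r of 0.50 and Spearman's rho of 0.48, as a description, since genes are not independent replicates. Calls within a genotype depended on the clones fitted, those of the other genotype included, because the fit uses a common residual spread for both genotypes. The SE of a change within a genotype thus holds the spread of all clones. Without D7 the control calls numbered 976 rises and 862 falls, and without D3 they numbered 8 and 3, without E8 4 and 2. The null calls fell to 46 rises and 46 falls without 3F, to 2 and 0 without D6, and to 2 and 0 without 7F. Without control D7 the null calls numbered 1405 rises and 1610 falls. Calls of list members without D7 are read against the control and null calls of that fit, out of 10879 genes tested. With 2 control clones left, changes overlap less often by construction, and without D7 17.8% of all genes had lower and 19.9% higher changes in null without overlap. Every statement below that a gene rose or fell within a genotype therefore holds for the fit to all 12 libraries.

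**Figure D1:**
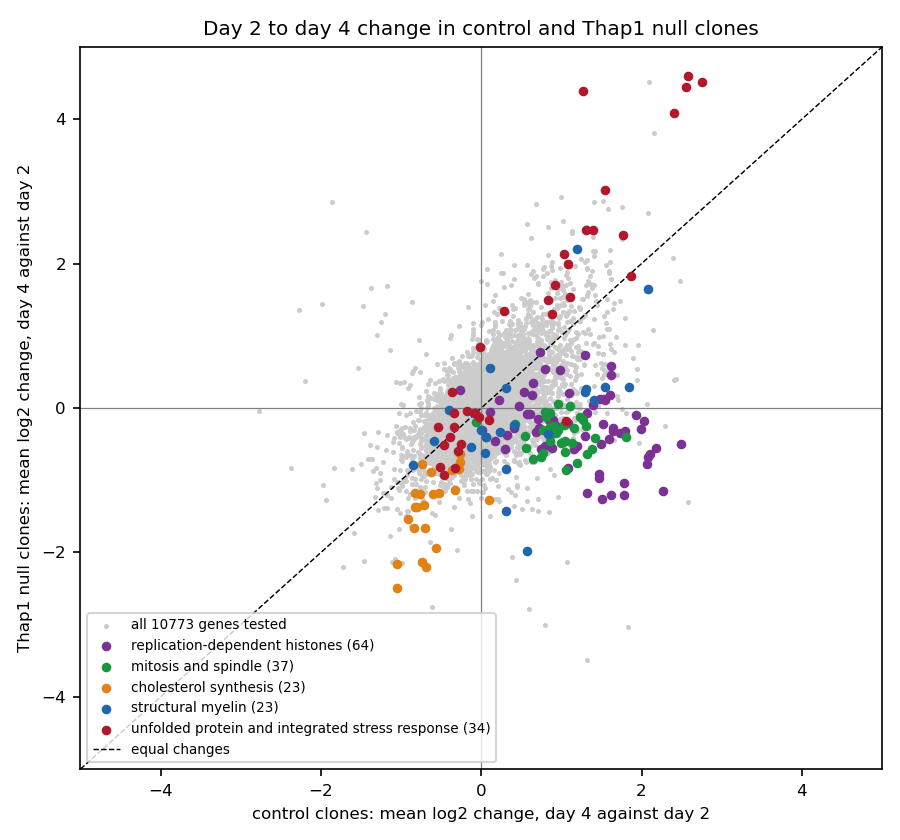
Mean log2 change from DIV2 to DIV4 in the 3 control clones (horizontal axis) against that in the 3 Thap1 null clones (vertical axis), 1 point per gene, for all 10773 genes tested and for 5 gene lists in colour. Most histone and mitosis genes lie to the right of 0 and near or below 0 on the null axis, cholesterol genes lie below the dashed line of equal changes, and several stress-response genes lie above it.

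The genes with the smallest p for a lower change in null were mostly histone genes. Hist1h2ae, which encodes a histone H2A and lies in the histone cluster of chromosome 13 (chr13:23570517-23571220, GRCm38), went from 2.7 to 9.15 in D7, 3.04 to 10.5 in D3 and 3.41 to 12.1 in E8 rescaled TPM. Null levels of Hist1h2ae went from 5.95 to 1.59 in 3F, 7.78 to 1.93 in D6 and 5.1 to 2.61 in 7F. The level was higher on day 4 in every control clone and lower in every null clone, and the interaction was -2.77 (SE 0.23, limma adjusted p = 0.0549), which was the smallest adjusted p of all genes. In control Hist1h2ae rose by 1.51 (SE 0.16, limma adjusted p = 0.021) on the log2 scale, and in null the change was -1.25 (SE 0.16, limma adjusted p = 0.00822), a called fall. The other histone genes named by the rule were Hist1h2ai -1.92 (SE 0.21), Hist1h2bf -1.68 (SE 0.20), Hist1h2ab -2.74 (SE 0.33), Hist1h2bb -2.98 (SE 0.36), Hist1h2bh -1.99 (SE 0.24), Hist1h3g -2.85 (SE 0.35) and Hist1h2bk -1.72 (SE 0.22), all interactions with adjusted p between 0.0803 and 0.0887. Between 47.7% and 100% of the 31-base words of these 8 genes also occur in transcripts of other genes, so reads could be divided differently among the copies and single histone values are uncertain.

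Only Eps8 and Kcnip2 were not histone genes among the 10 named with a lower change. Eps8, a regulator of actin filaments, went from 11.6 to 17 in D7, 27.1 to 35.1 in D3 and 17.5 to 22.9 in E8 rescaled TPM. Null levels of Eps8 went from 144 to 60.4 in 3F, 66 to 34.1 in D6 and 96.2 to 35.1 in 7F, with an interaction of -1.62 (SE 0.16, limma adjusted p = 0.0782). The null clones were higher than every control library on day 2 and, on day 4, overlapped the highest control clone. Kcnip2, a subunit that associates with Kv4 potassium channels, went from 1.46 to 1.33 in D7, 1.07 to 1.66 in D3 and 1.82 to 1.87 in E8. Null levels of Kcnip2 went from 24 to 6.36 in 3F, 9.09 to 3.34 in D6 and 18.4 to 5.77 in 7F, and the interaction was -1.60 (SE 0.20, limma adjusted p = 0.086). Kcnip2 fell in null, with a log2 change of -1.5 (SE 0.14, limma adjusted p = 0.00578) on the log2 scale, from a level far above that of any control library to one that was still above it.

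Genes with a higher change in null had varied functions. Nupr1, a small stress-induced transcription regulator, went from 0 to 0.057 in D7, 0 to 4.01 in D3 and 0.103 to 1.9 in E8 rescaled TPM. Null levels of Nupr1 went from 0.384 to 26.7 in 3F, 0.13 to 22.1 in D6 and 0.249 to 26.9 in 7F, all above the control levels of the same day. Its interaction of 3.12 (SE 0.51, limma adjusted p = 0.102) was the largest of those named with a higher change, on the log2(rescaled TPM + 1) scale, which understates changes from levels near 0.

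Of the other genes with a higher change, Col18a1 (collagen XVIII) had an interaction of 1.28 (SE 0.15), Gfra2 (the neurturin receptor) of 1.76 (SE 0.28), Sh3bp5 of 1.57 (SE 0.23), Pde3a (a cyclic nucleotide phosphodiesterase) of 1.33 (SE 0.21) and Siah2 (a ubiquitin ligase) of 0.88 (SE 0.14). Each of these 5 rose in null, and of them Col18a1 also rose in control. Col18a1 began day 2 at 0.195 to 0.797 rescaled TPM in control and 1.58 to 4.64 in null. Its plain ratios of day 4 to day 2 overlapped, at 5.01, 3.12 and 3.36 in D7, D3 and E8 and 4.99, 6.64 and 5.58 in 3F, D6 and 7F. With 0.1 added instead of 1 the interaction of Col18a1 was 0.81. Cdc42ep3 (an effector of the GTPase Cdc42) had 1.36 (SE 0.24), Gbp3 (a guanylate-binding protein) 1.0 (SE 0.18) and Tmem201 (an inner nuclear membrane protein) 0.96 (SE 0.17), the last being 0.35 when TPM was summed over all biotypes. Cdc42ep3 and Gbp3 fell in control, with log2 changes of -0.85 (SE 0.17, limma adjusted p = 0.047) and -0.66 (SE 0.13, limma adjusted p = 0.0438), and went up in each null clone without passing the test there. Tmem201 rose in null by 0.61 (SE 0.12, limma adjusted p = 0.021). The adjusted p of the interactions given for these genes and Nupr1 lay between 0.0803 and 0.119.

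Mitosis genes showed the most uniform genotype difference among the lists. Of 48 genes of mitosis and the spindle, 37 passed the filter, and all 37 had a lower change in null, with a median interaction of -1.32 against 0.016 over all genes. The clone changes did not overlap for 33 of them, and 35 had an unadjusted p under 0.05, against 11% and 8.66% of all genes in this direction. Within genotypes, 15 of the 37 rose in control and none fell, and in null none rose and 1 fell. The median change was 0.93 in D7, 0.60 in D3 and 1.41 in E8, and -0.33 in 3F, -0.75 in D6 and 0.0084 in 7F. With D7 left out, 37 of 40 did not overlap, 24 rose in control and the median interaction was -1.32, while without D3 or without E8 none rose.

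The summed level of the 48 mitosis genes showed that the genotypes crossed. On day 2 it was 91.4, 119 and 90 rescaled TPM in D7, D3 and E8 and 139.5, 250.3 and 174 in 3F, D6 and 7F. By day 4 the sums were 187, 165 and 240.0 in the control clones and 97.1, 144 and 163 in the null clones. The null clones were thus above all control clones on day 2 and below all of them on day 4, with a narrow margin on day 4 between D3 and 7F. In bulk RNA, fewer cells of a type and less RNA per cell cannot be told apart, and this holds for every list below.

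Individual mitosis genes, of which Ccnb1, Birc5, Cks2 and Cdc20 were chosen after their values were seen, also had lower changes in null. Unlike the sum, the day 4 levels of Top2a, Birc5 and Cdc20 overlapped between the genotypes. Ccnb1, the mitotic cyclin B1, went from 1.12 to 7.02 in D7, 2.96 to 7.33 in D3 and 1.36 to 11.8 in E8 rescaled TPM. Null levels of Ccnb1 went from 3.96 to 3.08 in 3F, 12.2 to 5.22 in D6 and 5.28 to 5.96 in 7F, with an interaction of -2.21 (SE 0.42, limma adjusted p = 0.123). Top2a, the topoisomerase that untangles chromosomes and 1 of the 2 most abundant members, went from 2.26 to 7.55 in D7, 4.43 to 7.97 in D3 and 2.48 to 13.1 in E8. Null levels of Top2a went from 6.62 to 4.1 in 3F, 18.5 to 8.96 in D6 and 11.3 to 10.2 in 7F, with an interaction of -1.94 (SE 0.35, limma adjusted p = 0.12). In each control clone both genes were higher on day 4, and in the null clones they were lower on day 4 apart from a small increase of Ccnb1 in 7F. Birc5 (survivin, of the chromosomal passenger complex) had an interaction of -1.97 (SE 0.31, limma adjusted p = 0.102), Cks2 (a cyclin-dependent kinase subunit) of -1.92 (SE 0.28, limma adjusted p = 0.0966) and Cdc20 (an activator of the anaphase-promoting complex) of -1.56 (SE 0.27, limma adjusted p = 0.115). These 5 genes rose in control, by 1.06 to 1.81 on the log2 scale, and Cks2 fell in null, with a log2 change of -0.86 (SE 0.20, limma adjusted p = 0.0312). Bub3, a spindle checkpoint protein and the most abundant member, differed from the others in having an interaction near 0, -0.12 (SE 0.23, limma adjusted p = 0.835), with changes that overlapped between the genotypes. Ccnb1 shares 45.9% of its 31-base words with other genes, Cks2 31.7% and Cdc20 27.4%, so these 3 are uncertain, while Top2a and Birc5 share under 5%.

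Replication-dependent histones, a list added after values were seen and taken by gene name, moved with the mitosis genes. Of 64 histone genes tested of 68, 62 had a lower change in null, and the clone changes did not overlap for 46 of them, against 1 in the other direction. The shares of all genes without overlap were 11% and 12.9%. The median interaction was -1.37, and the median change was 0.91 in D7, 1.01 in D3 and 1.71 in E8, and -0.42 in 3F, -0.43 in D6 and 0.16 in 7F. In control 30 rose and none fell, and in null 2 rose and 3 fell. Left-out clones changed the count of control rises to 41 without D7, 3 without D3 and 0 without E8. Summed histone levels were 1585, 1690.5 and 1354 rescaled TPM in D7, D3 and E8 on day 2 and 2719.8, 2954 and 3669.5 on day 4. For 3F, D6 and 7F the sums were 1503, 2034 and 1460.5 on day 2 and 1399, 1879 and 1832 on day 4. The genotypes overlapped on day 2, and on day 4 every control clone was above every null clone.

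Hist1h1b, the linker histone H1.5, was chosen after its values were seen because only 3.93% of its 31-base words occur in other genes. It went from 4.27 to 23.6 in D7, 10.4 to 26.1 in D3 and 4.2 to 51.8 in E8 rescaled TPM. Null levels of Hist1h1b went from 8 to 1.79 in 3F, 15.9 to 5.68 in D6 and 10 to 7.28 in 7F. The level increased in all control clones and decreased in all null clones, and the interaction was -3.42 (SE 0.55, limma adjusted p = 0.102). Hist1h1b rose in control by 2.27 (SE 0.39, limma adjusted p = 0.0364) on the log2 scale, and its null change was -1.15 (SE 0.39, limma adjusted p = 0.0824).

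**Figure D2:**
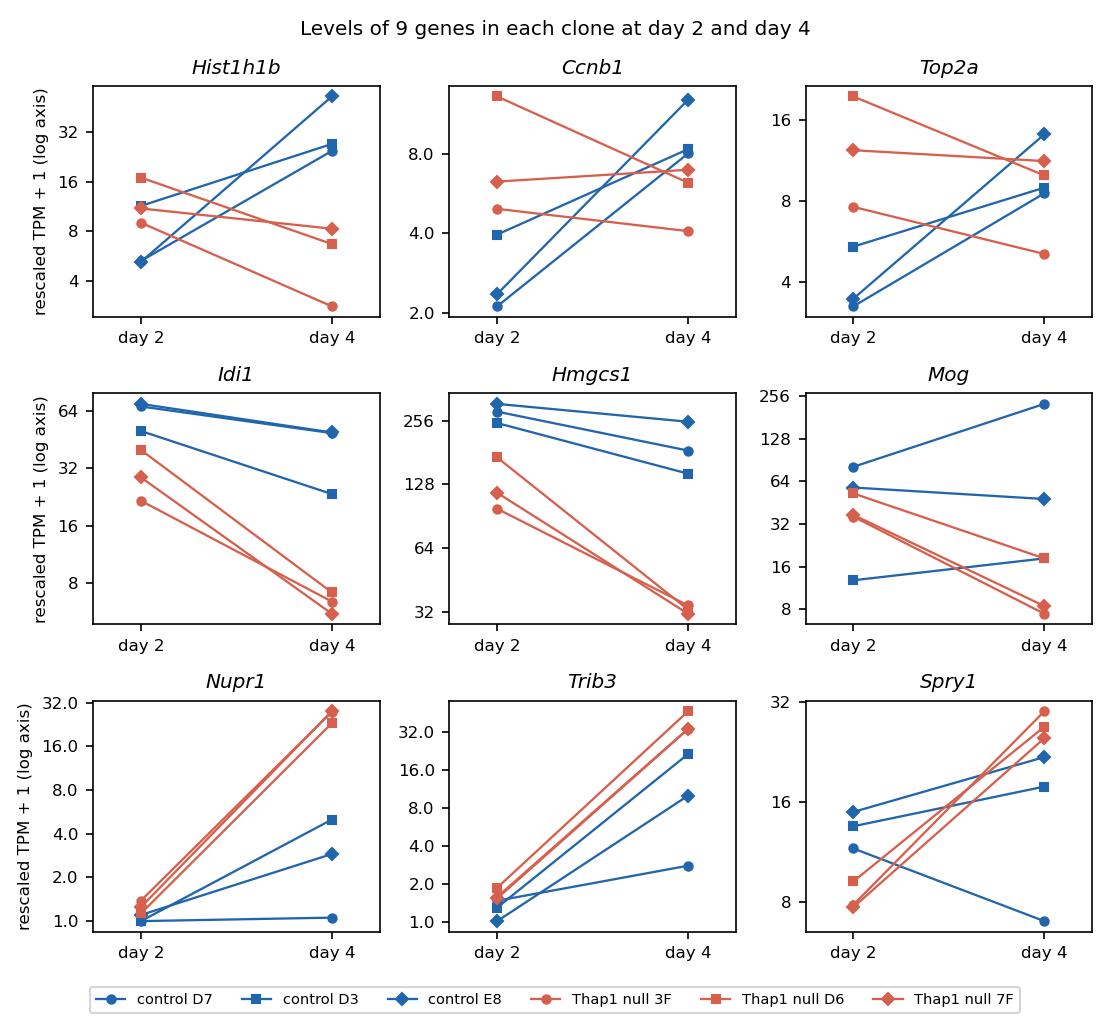
Level of 9 genes on day 2 and day 4 (rescaled TPM + 1, log axis), 1 line per clone, control in blue and Thap1 null in red. Hist1h1b, Ccnb1 and Top2a increased in all 3 control clones, Idi1 and Hmgcs1 decreased more in the null clones, Mog decreased in the 3 null clones, and Nupr1, Trib3 and Spry1 reached their highest day 4 levels in the null clones.

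The promoters of genes from the lists that differed are shown because their members moved together. RefSeq windows (GRCm38.p6) hold 250 bases before and 50 after the annotated start, 5′ to 3′ on the gene's strand, and capitals mark the cell cycle genes homology region (CHR, searched as TTTGAA) and the CCAAT box (CCAAT), each on either strand. The CHR is the site through which MuvB complexes act on late cell cycle genes, and the CCAAT box is bound by NF-Y. They are Hist1h1b at chr13:21780576-21780875, minus strand, Ccnb1 at chr13:100786437-100786736, minus strand, Cdc20 at chr4:118437294-118437593, minus strand, Top2a at chr11:99024140-99024439, minus strand and, from the cholesterol list described further on, Hmgcs1 at chr13:119690101-119690400, plus strand.
Hist1h1b: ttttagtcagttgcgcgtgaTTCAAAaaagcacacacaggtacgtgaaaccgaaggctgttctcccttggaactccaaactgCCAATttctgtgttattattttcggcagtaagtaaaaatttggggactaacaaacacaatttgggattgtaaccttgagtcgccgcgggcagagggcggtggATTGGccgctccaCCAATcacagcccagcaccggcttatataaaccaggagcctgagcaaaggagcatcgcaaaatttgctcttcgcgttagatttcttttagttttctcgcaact
Ccnb1: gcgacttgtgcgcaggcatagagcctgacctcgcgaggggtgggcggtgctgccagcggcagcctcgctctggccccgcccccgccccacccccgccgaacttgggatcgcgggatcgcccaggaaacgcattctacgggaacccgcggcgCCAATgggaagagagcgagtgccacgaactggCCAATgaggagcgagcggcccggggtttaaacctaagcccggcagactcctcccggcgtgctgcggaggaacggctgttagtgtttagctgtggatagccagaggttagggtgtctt
Cdc20: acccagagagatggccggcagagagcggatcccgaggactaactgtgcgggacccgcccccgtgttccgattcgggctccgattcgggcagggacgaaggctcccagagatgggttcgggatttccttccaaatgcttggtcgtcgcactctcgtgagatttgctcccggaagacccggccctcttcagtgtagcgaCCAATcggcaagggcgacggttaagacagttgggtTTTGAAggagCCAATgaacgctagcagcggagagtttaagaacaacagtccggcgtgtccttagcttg
Top2a: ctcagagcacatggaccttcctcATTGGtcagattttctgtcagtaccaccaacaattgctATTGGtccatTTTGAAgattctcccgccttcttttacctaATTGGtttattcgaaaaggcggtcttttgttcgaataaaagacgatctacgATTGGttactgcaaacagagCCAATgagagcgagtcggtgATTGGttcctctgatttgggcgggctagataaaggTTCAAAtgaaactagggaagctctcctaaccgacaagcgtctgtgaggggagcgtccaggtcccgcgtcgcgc
Hmgcs1: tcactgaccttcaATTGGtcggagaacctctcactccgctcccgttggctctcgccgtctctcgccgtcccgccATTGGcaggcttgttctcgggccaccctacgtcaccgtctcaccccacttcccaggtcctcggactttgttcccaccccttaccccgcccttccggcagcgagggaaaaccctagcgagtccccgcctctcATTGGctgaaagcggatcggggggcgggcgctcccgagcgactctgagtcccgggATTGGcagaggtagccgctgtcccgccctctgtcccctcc

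TTTGAA was present in 30 of 44 promoters of the mitosis list (68.2%), from 41 of its 48 genes that were matched, against 17.9% of all 32851 promoters of this length. In the histone list 28 of 62 promoters held it (45.2%), but in the DNA replication list, described below, 5 of 36 did (13.9%). The counts were 1 of 19 (5.26%) in the cholesterol list, 3 of 33 (9.09%) in the structural myelin list and 1 of 34 (2.94%) in the stress-response list. CCAAT occurred in 75% of the mitosis promoters, 85.5% of the histone promoters, 84.2% of the cholesterol promoters and 67.7% of the stress-response promoters, against 37.4% of all promoters. For the replication and structural myelin promoters the shares were 58.3% and 45.5%. Among the printed windows, Ccnb1 and Hmgcs1 held no TTTGAA and all 5 held at least 1 CCAAT. A match describes the letters in the window and does not show that a factor binds there.

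DNA replication genes had the same direction with smaller differences. Of 29 tested of 37, 27 had a lower change in null, 14 without overlap (11% of all genes), and the median interaction was -0.45. Their median changes were 0.46 in D7, -0.0342 in D3 and 0.45 in E8, and -0.19 in 3F, -0.23 in D6 and -0.27 in 7F. The only call within a genotype was 1 rise in control, that of Cdc45, a part of the replicative helicase chosen after its values were seen. Without D7, 3 rose in control. Cdc45 went from 0.604 to 2.11 in D7, 1.13 to 1.72 in D3 and 1.04 to 2.85 in E8 rescaled TPM. Null levels of Cdc45 went from 1.99 to 1.31 in 3F, 3.13 to 2.04 in D6 and 2.34 to 1.69 in 7F, with an interaction of -1.12 (SE 0.21, limma adjusted p = 0.127). The most abundant members, the sliding clamp Pcna and the helicase subunit Mcm7, had interactions of -0.60 (SE 0.23) and 0.0225 (SE 0.16). Without D7 that of Pcna was -0.40. Pcna shares 38% of its 31-base words with other genes and Mcm7 29.3%, so both are uncertain.

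CDK inhibitors, D cyclins and related genes gave mixed results. The median interaction was -0.16, or -0.28 without D7, over 11 tested of 15 CDK inhibitors, D cyclins, their kinases and Rb family genes. Without overlap, 3 had lower changes in null and 0 higher ones, against 11% and 12.9% of all genes. The 3 lower ones were the INK4-type inhibitors Cdkn2a, Cdkn2c and Cdkn2d, with interactions of -0.45 (SE 0.13), -0.93 (SE 0.23) and -0.57 (SE 0.18). Cdkn2a, 1 of the 2 most abundant members, rose in control by 0.48 (SE 0.0889, limma adjusted p = 0.0413) and its null change was 0.0298 (SE 0.0889, limma adjusted p = 0.838). Cdkn1b (p27), chosen after its values were seen, rose in both genotypes, by 0.49 in control and 0.56 in null, with an interaction of 0.0696 (SE 0.14). Cdk4, the partner kinase of the D cyclins, fell in null, with a log2 change of -0.69 (SE 0.11, limma adjusted p = 0.0134), with an interaction of -0.19 (SE 0.16).

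For 20 tested of 25 p53 targets the median interaction was -0.36. Without overlap, 5 had lower and 1 higher changes in null, against 11% and 12.9% of all genes. In control 5 rose and none fell, and in null 3 rose and 3 fell. Without D7, 9 rose in control, and in null 4 rose and 3 fell, with a median interaction of -0.45. Among all 10879 genes of that fit, 976 rose in control, and in null 1405 rose and 1610 fell. Ccng1 (cyclin G1), the most abundant, went from 50.9 to 63.4 in D7, 57.6 to 72.5 in D3 and 68.9 to 106 in E8 rescaled TPM. Null levels of Ccng1 went from 48 to 35.7 in 3F, 43.7 to 33.6 in D6 and 48 to 33.8 in 7F, with an interaction of -0.84 (SE 0.13, limma adjusted p = 0.102). Ccng1 was higher on day 4 in each control clone and lower in each null clone, and it fell in null, with a log2 change of -0.43 (SE 0.0943, limma adjusted p = 0.0269). The apoptosis gene Bax had -0.37 (SE 0.14), and Trp53inp1, chosen after its values were seen, had -0.91 (SE 0.15, limma adjusted p = 0.102) and fell in null, with a log2 change of -0.87 (SE 0.10, limma adjusted p = 0.00786). Eda2r, also chosen afterwards, was between 0 and 0.118 rescaled TPM in the null libraries, so its interaction of -0.91 (SE 0.23) reflects a change measured in control alone.

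Cholesterol synthesis genes had lower levels on day 4, with lower changes in null. All 23 of 23 fell in null, and 2 fell in control, against 9.24% and 1.6% of all genes. Every member had a lower change in null, from -1.52 to -0.0304, and the median interaction was -0.62. The clone changes did not overlap for 13, against 11% of all genes in this direction. The median change was -0.38 in D7, -1.01 in D3 and -0.64 in E8, and -1.01 in 3F, -1.5 in D6 and -1.23 in 7F, so control D3 and null 3F were alike. Without 3F, 15 fell in null, and without D6 or without 7F none did. With D7 left out, 15 fell in control and 23 in null, against 862 and 1610 of all 10879 genes in that fit. Then 13 did not overlap, against 17.8% of all genes, and the median interaction was -0.53. Their summed level on day 2 was 1622, 1265 and 1731 rescaled TPM in D7, D3 and E8 and 687, 1181 and 809 in 3F, D6 and 7F. On day 4 it was 1302, 627 and 1131 in control and 272, 329.9 and 274 in null. Null clones were lower on both days without overlap, by the widest margin on day 4.

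The members span the pathway from its first steps. Hmgcs1, HMG-CoA synthase and the most abundant, went from 281 to 184 in D7, 248 to 143 in D3 and 306 to 252 in E8 rescaled TPM. Null levels of Hmgcs1 went from 97 to 33.2 in 3F, 170.4 to 31.7 in D6 and 116 to 30.2 in 7F, with an interaction of -1.37 (SE 0.25, limma adjusted p = 0.119). Idi1, the isomerase of isopentenyl diphosphate, went from 66.4 to 47.9 in D7, 49.1 to 22.4 in D3 and 68.5 to 48.2 in E8. Null levels of Idi1 went from 20.6 to 5.39 in 3F, 38.8 to 6.13 in D6 and 27.6 to 4.51 in 7F, with an interaction of -1.52 (SE 0.25, limma adjusted p = 0.106). Both genes were lower on day 4 in all 6 clones, and both fell in null, with log2 changes of -1.94 (SE 0.17, limma adjusted p = 0.00518) and -2.20 (SE 0.18, limma adjusted p = 0.00518), whereas the control changes were -0.56 (SE 0.17, limma adjusted p = 0.101) and -0.69 (SE 0.18, limma adjusted p = 0.073). Insig1, which holds the SREBP machinery in the endoplasmic reticulum, had -1.40 (SE 0.25, limma adjusted p = 0.119), the sterol reductase gene Tm7sf2 had -0.81 (SE 0.11, limma adjusted p = 0.0966) and Fdps, farnesyl diphosphate synthase, had -1.11 (SE 0.37, limma adjusted p = 0.233). Idi1, Insig1 and Tm7sf2 were chosen after their values were seen, and 85.8% of the 31-base words of Fdps occur in other genes, as do 21.2% for Idi1 and 21.8% for Tm7sf2.

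**Figure D3:**
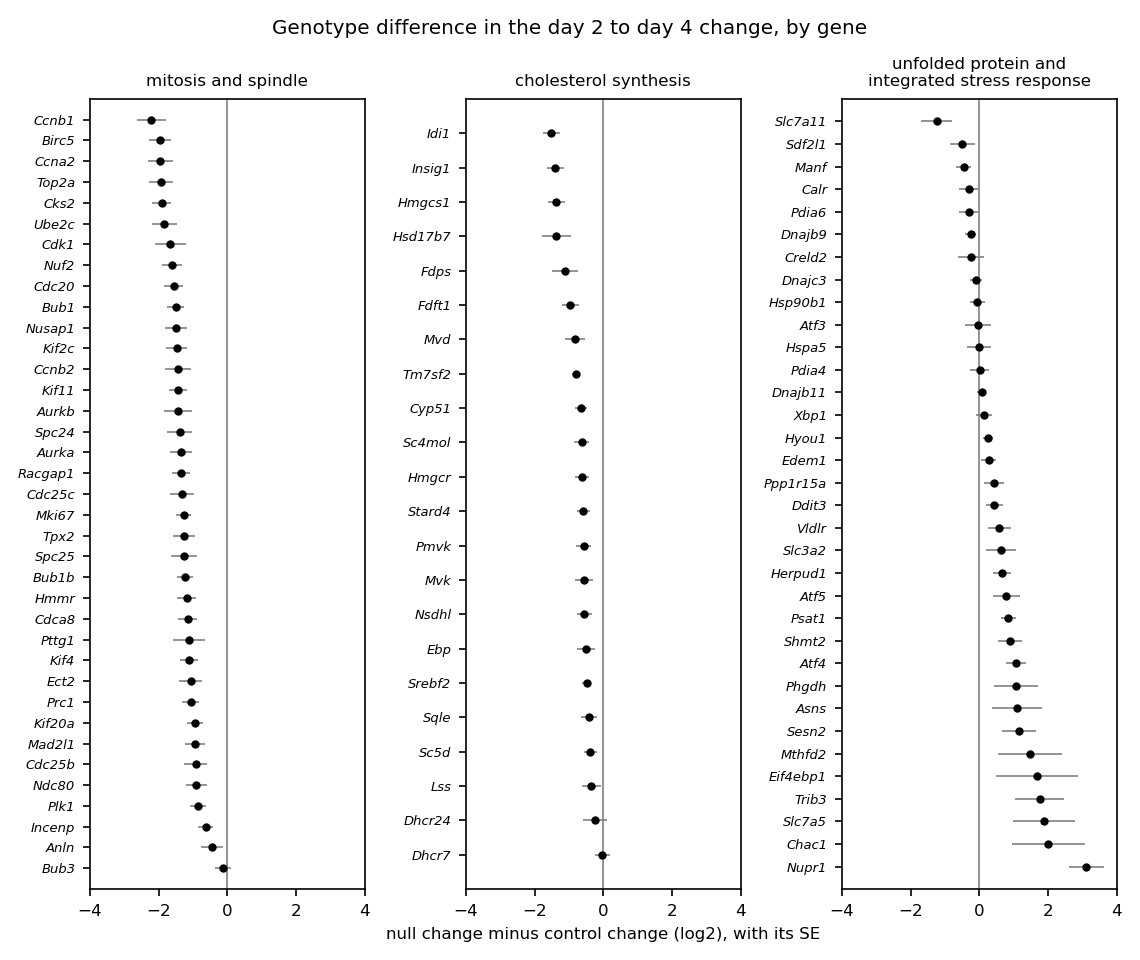
Interaction (null change minus control change, log2, with its SE) of the genes tested in 3 lists, 1 cholesterol gene not being plotted. All mitosis and cholesterol genes lie at or below 0, whereas stress-response genes range from -1.23 to 3.12.

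Enzymes of the other myelin lipids had no common direction with all clones fitted. Of 22 genes tested, 2 had higher and 1 lower changes in null without overlap, against 12.9% and 11% of all genes. The median interaction was 0.0436. No member was called in control, and in null 2 rose and 1 fell. Without D7, 9 had higher and 3 lower changes in null without overlap, against 19.9% and 17.8% of all genes in that fit. The median interaction was then 0.24, 10 fell in control, and in null 3 rose and 6 fell. The desaturase Scd2 and the galactosylceramide synthase Ugt8a, the most abundant, had interactions of 0.07 (SE 0.15) and -0.0244 (SE 0.43).

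Structural myelin genes depended on clone D7, and also on null clone D6. Of 23 tested of 25, 17 had a lower change in null, 6 without overlap (11% of all genes), and the median interaction was -0.57. The median change was 1.24 in D7, 0.0577 in D3 and -0.0398 in E8, and -0.47 in 3F, 0.23 in D6 and -0.15 in 7F. The summed level went from 6751 to 13135 rescaled TPM in D7, and on day 4 it was 3542 in D3, 2814 in E8 and 3074 to 4186 in the null clones. With D7 left out the median interaction was -0.13, and 5 lower and 3 higher changes of 22 did not overlap, shares near those of all genes without D7. With D6 left out instead, the median interaction was -0.81. Then 12 lower and 0 higher changes of 23 did not overlap, against 15.5% and 18.3% of all genes in that fit. In each genotype 2 members rose, and 2 fell in null, whereas without D7 3 rose and 3 fell in control, and 2 rose and 6 fell in null.

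Mog, the myelin oligodendrocyte glycoprotein, had the largest difference of the list and was chosen after its values were seen. It went from 80.3 to 225 in D7, 11.8 to 17.3 in D3 and 57 to 47.1 in E8 rescaled TPM. Null levels of Mog went from 35.1 to 6.44 in 3F, 51.7 to 17.3 in D6 and 36.1 to 7.43 in 7F, with an interaction of -2.55 (SE 0.43, limma adjusted p = 0.109), or -2.10 without D7. Mog fell in null, with a log2 change of -1.98 (SE 0.30, limma adjusted p = 0.012), and the control clones were spread from a decrease in E8 to a more than doubled level in D7. Mbp, myelin basic protein, went from 2247 to 6824 in D7, 1648 to 1309 in D3 and 1180.5 to 937 in E8. Null levels of Mbp went from 576 to 123 in 3F, 1149.7 to 804 in D6 and 517 to 174 in 7F, with an interaction of -1.74 (SE 0.62, limma adjusted p = 0.249). Its changes did not overlap between the genotypes, but those of D3 and D6 were close, and the interaction was -1.09 without D7. Cldn11, a tight-junction protein of the myelin sheath, had 0.38 (SE 0.39), or 0.81 without D7. Mobp and Ermn, proteins of compact myelin and of the oligodendrocyte cytoskeleton, had day 4 levels of 4.91 to 53.5 and 1.59 to 6.36 in control and at most 1.5 and 0.64 in null. Their interactions were -1.55 (SE 0.78) and -1.30 (SE 0.33). Mobp was also higher on day 4 in null D6, from 0.31 to 1.5, and without D7 its interaction was -0.58, while Ermn then missed the filter. Pmp22, a myelin protein best known from peripheral nerve, had an interaction of 1.0 (SE 0.41) (or 0.62 without D7) in the other direction and rose in null by 2.20 (SE 0.29, limma adjusted p = 0.00856). Mobp, Ermn and Pmp22 were chosen after their values were seen.

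Markers of earlier lineage stages showed no common difference. OPC markers (17 tested) had a median interaction of 0.25, with median changes of -0.34 in D7, 0.71 in D3 and 1.17 in E8, and 0.38 in 3F, -0.0162 in D6 and 0.47 in 7F, and the median interaction was -0.25 without D7. The prostaglandin synthase Ptgds and the transcription factor Olig1, the most abundant, had interactions of -2.01 (SE 0.69) and -0.55 (SE 0.28). Ptgds went from 84 to 834 in D7, 126 to 345 in D3 and 77.8 to 435 in E8 rescaled TPM and rose in control by 2.40 (SE 0.49, limma adjusted p = 0.047). Null levels of Ptgds went from 829 to 504 in 3F, 424 to 1449.9 in D6 and 489.8 to 531 in 7F, so the null clones disagreed among themselves. Of the 17 OPC markers, 2 had higher and 1 lower changes in null without overlap, against 12.9% and 11% of all genes. Among them were Sulf2, a heparan sulfate sulfatase, at 0.58 (SE 0.16) and Ednrb, an endothelin receptor, at -1.21 (SE 0.45), both chosen after their values were seen.

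Premyelinating genes were partly lower on day 4: 2 of 19 fell in control and 5 in null, with a median interaction of -0.0277. Without D7, 11 of 18 fell in control and 11 in null, against 862 and 1610 of all 10879 genes in that fit. The median interaction was then 0.25, against -0.25 without E8. Bcas1, a marker of newly formed oligodendrocytes and the most abundant, fell in control, with a log2 change of -0.87 (SE 0.16, limma adjusted p = 0.0391) and in null by -0.67 (SE 0.16, limma adjusted p = 0.0313), with an interaction of 0.20 (SE 0.22). Fyn, a kinase active at this stage, had an interaction of 0.70 (SE 0.32). Itpr2, an intracellular calcium channel of early oligodendrocytes, went from 44.1 to 24.8 in D7, 47.7 to 23.3 in D3 and 33.6 to 13.2 in E8 rescaled TPM. Null levels of Itpr2 went from 8.98 to 12.8 in 3F, 21.4 to 12.6 in D6 and 10.2 to 10.5 in 7F, with an interaction of 0.96 (SE 0.30, limma adjusted p = 0.216). The null clones began day 2 below every control clone and ended just below the control range. Bmp4, a secreted ligand of the list, had -1.51 (SE 0.51), and both Itpr2 and Bmp4 were chosen after their values were seen.

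Oligodendrocyte transcription factors (16 tested) had no call in either genotype and a median interaction of 0.0093. Without D7 the median was 0.12 and 1 rose in each genotype. Sox10 had 0.30 (SE 0.12). In the list 2 were higher in null without overlap and 0 lower, against 12.9% and 11% of all genes. Among 19 inhibitors of differentiation the median interaction was 0.27, and -0.0596 without D7. The receptor Gpr17 and the progenitor factor Sox2, the most abundant, had 0.67 (SE 0.27) and 0.30 (SE 0.19), Sox2 having 0.17 without D7. None of the inhibitors was called in control, while 6 rose and 1 fell in null, against 7.49% and 9.24% of all genes. Without D7, 8 of 19 rose in control, and 9 rose and 3 fell in null. That fit called 976 rises in control, and 1405 rises and 1610 falls in null, among all 10879 genes.

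**Figure D4:**
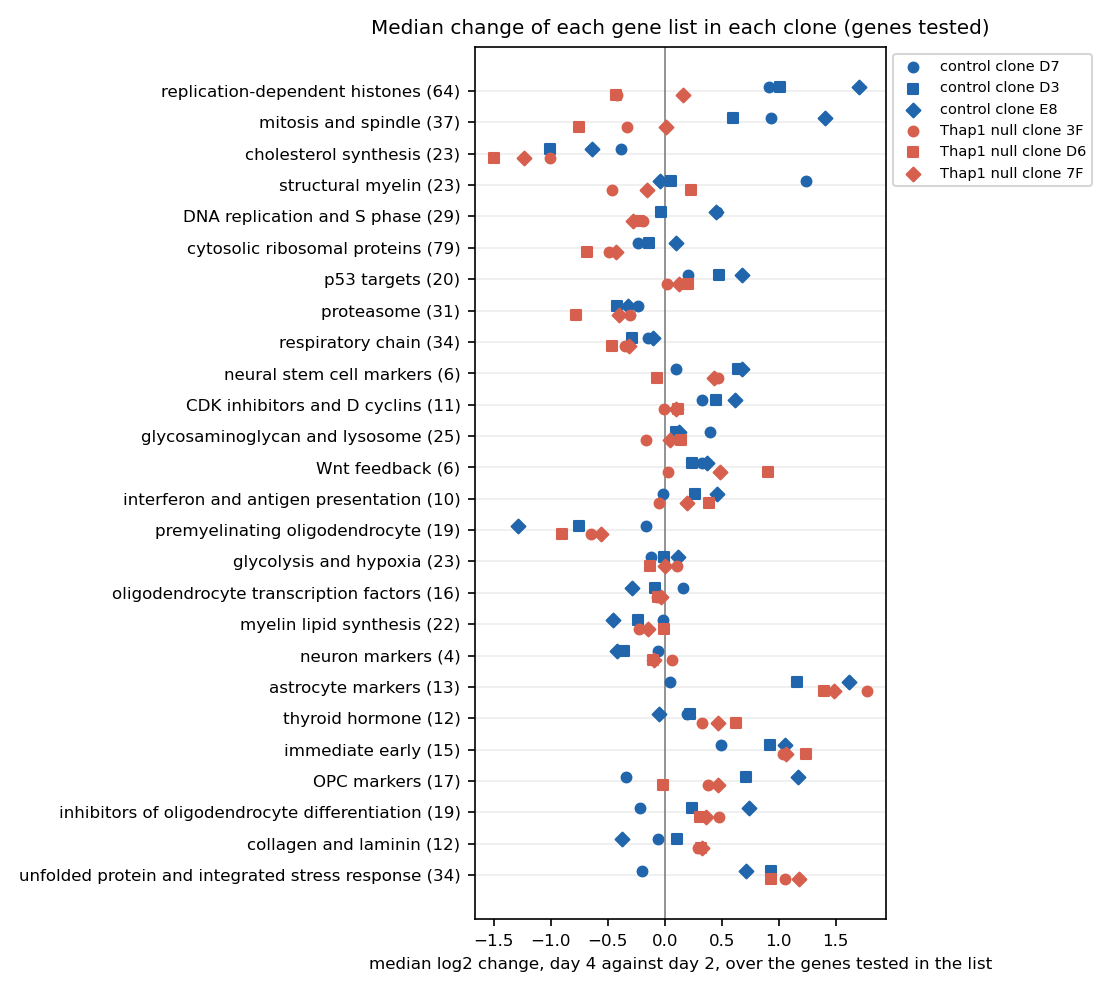
Median log2 change from DIV2 to DIV4 of the tested genes in each list (number in brackets), 1 point per clone, control in blue and Thap1 null in red, ordered by median interaction. The clone medians of the 2 genotypes do not overlap for the histone, mitosis, replication, ribosomal protein, respiratory chain, CDK inhibitor, p53 target, thyroid hormone and collagen lists. Control D7 lies apart for myelin, astrocyte, OPC and stress-response genes. The microglia and the mesenchymal and endothelial lists are not drawn.

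Stress-response genes had a median change above 0 in every clone apart from D7. Of 34 genes tested of the unfolded protein and integrated stress responses, 18 rose and 2 fell in null, against 4 and 0 in control. The median interaction was 0.43, and 7 genes had higher and 1 lower changes in null without overlap, against 12.9% and 11% of all genes. D7 differed from the other control clones: the median change was -0.20 in D7, 0.93 in D3 and 0.71 in E8, and 1.05 in 3F, 0.93 in D6 and 1.18 in 7F. With D7 left out, 18 rose in control and 18 in null, against 976 and 1405 of all 10879 genes in that fit. The median interaction was then 0.19. Without 3F, 5 rose in null, and without D6 or without 7F none did.

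Nupr1, described above, had the largest interaction. Trib3, a pseudokinase induced by ATF4, went from 0.477 to 1.8 in D7, 0.303 to 20.4 in D3 and 0.018 to 9.04 in E8 rescaled TPM. Null levels of Trib3 went from 0.582 to 33 in 3F, 0.872 to 45.8 in D6 and 0.542 to 32.9 in 7F, with an interaction of 1.75 (SE 0.72, limma adjusted p = 0.3), or 0.82 without D7. Trib3 rose in both genotypes, and on the log2(rescaled TPM + 1) scale D3 came closest to the null clones. Day 2 levels of Trib3 were low, and plain ratios of day 4 to day 2 gave another order. They were 3.77 in D7, 67.4 in D3 and 501.6 in E8, against 56.8, 52.5 and 60.6 in 3F, D6 and 7F. With 0.1 added instead of 1 the interaction of Trib3 was 1.06. Chac1, a glutathione-degrading enzyme also induced by ATF4, went from 1.53 to 1.18 in D7, 2.78 to 61.3 in D3 and 1.06 to 30.1 in E8. Null levels of Chac1 went from 2.43 to 67.2 in 3F, 1.54 to 79.5 in D6 and 2.08 to 67.9 in 7F, with an interaction of 2.01 (SE 1.06, limma adjusted p = 0.398), or 0.62 without D7. D7 alone showed no increase of Chac1. The ratios of Chac1 were 0.769, 22 and 28.5 in D7, D3 and E8 and 27.7, 51.6 and 32.7 in 3F, D6 and 7F, so E8 exceeded 3F. Psat1, an enzyme of serine synthesis and 1 of the 2 most abundant members, rose in null by 0.84 (SE 0.16, limma adjusted p = 0.0195) and had an interaction of 0.85 (SE 0.23, limma adjusted p = 0.172). The endoplasmic reticulum chaperone Calr fell in null, with a log2 change of -0.82 (SE 0.20, limma adjusted p = 0.0362), with an interaction of -0.31 (SE 0.29). Ddit3 (CHOP) rose in both genotypes, by 1.11 in control and 1.54 in null, with an interaction of 0.43 (SE 0.25), or 0.21 without D7. Trib3, Chac1 and Ddit3 were chosen after their values were seen.

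Of the immediate early genes, 5 of 15 tested rose in control and 10 in null, with none falling. Without D7, 14 of 16 rose in control and 14 in null, against 976 and 1405 of all 10879 genes in that fit. The median interaction was 0.24, and -0.085 without D7. The transcription factor genes Fos and Jun, the most abundant, had 0.24 (SE 0.27) and -0.33 (SE 0.24). Spry1, a feedback inhibitor of receptor tyrosine kinase signalling, went from 10.6 to 6.03 in D7, 12.5 to 16.8 in D3 and 13.9 to 20.8 in E8 rescaled TPM. Null levels of Spry1 went from 6.87 to 29 in 3F, 8.25 to 25.9 in D6 and 6.74 to 23.9 in 7F, with an interaction of 1.65 (SE 0.33, limma adjusted p = 0.135). Spry1 rose in null, and the null clones went from below every control clone on day 2 to above all of them on day 4. Ier2, an early response factor, had 0.70 (SE 0.17, limma adjusted p = 0.164), and both genes were chosen after their values were seen.

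Thyroid hormone genes are of interest because all clones received T3. Of 12 tested of 20, 3 had higher changes in null without overlap and 0 lower, against 12.9% and 11% of all genes. The median interaction was 0.20. The receptor gene Thra and the hormone-responsive factor gene Klf9, the most abundant, had -0.11 (SE 0.32) and 0.33 (SE 0.35), Klf9 having 0.67 without D7. Rxrg, the retinoid X receptor gamma that pairs with nuclear receptors, went from 0.0722 to 0.0858 in D7, 0.885 to 2.28 in D3 and 0.108 to 0.465 in E8 rescaled TPM. Null levels of Rxrg went from 0.67 to 4.81 in 3F, 0.345 to 5.28 in D6 and 0.84 to 5.98 in 7F, with an interaction of 1.58 (SE 0.26, limma adjusted p = 0.102). Rxrg rose in null by 1.98 (SE 0.18, limma adjusted p = 0.00518), to levels above every control library. Aldh1a1, a retinaldehyde dehydrogenase, had 1.31 (SE 0.30, limma adjusted p = 0.161) and rose in both genotypes, and both were chosen after their values were seen.

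Extracellular matrix and signalling lists held few tested genes. Of 12 collagen and laminin genes, 3 had higher changes in null without overlap and 0 lower, against 12.9% and 11% of all genes. Their median interaction was 0.33. The fibrillar collagen gene Col11a1 and Col16a1, the most abundant, had 0.67 (SE 0.25) and 0.20 (SE 0.16), and Col11a1 fell in control, with a log2 change of -1.03 (SE 0.18, limma adjusted p = 0.0374). Wnt feedback genes (6 tested) had a median interaction of -0.0903, or 0.11 without D7, with Ccnd1 (cyclin D1) at -0.78 (SE 0.45) and the antagonist Sfrp1 at -0.074 (SE 0.27). Interferon and antigen presentation genes (10 tested) had -0.0472, or 0.0616 without D7, with Ifi27 at -0.29 (SE 0.17) and B2m, the light chain of MHC class I, at -0.99 (SE 0.31). B2m rose in control by 1.19 (SE 0.22, limma adjusted p = 0.0398), and its null change was 0.20 (SE 0.22, limma adjusted p = 0.549).

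Cytosolic ribosomal protein genes, a list added after values were seen, mostly fell in null. Of 79 tested, 55 fell in null and none was called in control, against falls of 9.24% and 1.6% of all genes. The median interaction was -0.44, 49 having lower changes in null without overlap and 1 a higher one, against 11% and 12.9% of all genes. The median change was -0.23 in D7, -0.14 in D3 and 0.10 in E8, and -0.49 in 3F, -0.68 in D6 and -0.43 in 7F. Rps3, a protein of the small subunit, went from 296 to 299.9 in D7, 269 to 227 in D3 and 259 to 295 in E8 rescaled TPM. Null levels of Rps3 went from 339 to 224 in 3F, 370.4 to 203 in D6 and 329 to 220.2 in 7F, with an interaction of -0.67 (SE 0.17, limma adjusted p = 0.167). The null clones were above the control clones on day 2 and below them on day 4. Rps15a and Rps14 had interactions of -0.68 (SE 0.18) and -0.82 (SE 0.18), and all 3 genes were chosen after their values were seen. Under quantile normalization the median interaction of the list was -0.11, and without 3F, D6 or 7F none fell in null.

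Respiratory chain genes had a median interaction of -0.22. Without overlap, 16 of 34 were lower in null and none higher, against 11% and 12.9% of all genes. In null 17 fell, against 9.24% of all genes. Ndufa4, a small subunit associated with cytochrome c oxidase, went from 579 to 524 in D7, 404 to 337 in D3 and 479.5 to 475 in E8 rescaled TPM. Null levels of Ndufa4 went from 582 to 341 in 3F, 605 to 290.4 in D6 and 545 to 326 in 7F, with an interaction of -0.72 (SE 0.16, limma adjusted p = 0.148). Atp5b, the beta subunit of ATP synthase, had 0.0942 (SE 0.15), so the 2 most abundant members differed. For 31 proteasome genes the median interaction was -0.24, and 18 fell in null and none in control, against 9.24% and 1.6% of all genes. The catalytic subunit Psmb6 had -0.39 (SE 0.21) and Psmb3, another beta subunit, -0.40 (SE 0.21). Psmb3 is uncertain, since 66.85% of its 31-base words occur in other genes. Without D7, Psmb6 had -0.25, and 6 proteasome and 4 respiratory chain genes fell in control, against 862 of all 10879 genes in that fit. The falls of both lists were not called without any 1 of the 3 null clones. Glycolysis and hypoxia genes (23 tested) had a median of -0.00629 (-0.0428 without D7), with the glycolytic enzymes Pgk1 at -0.0439 (SE 0.20) and Pkm at -0.16 (SE 0.17). Pgk1 shares 68.3% of its 31-base words with other genes and Pkm 52.65%, so both are uncertain.

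Lysosomal and glycosaminoglycan genes, tested because Gusb was nearly absent in null, had a median interaction of -0.12 (-0.000978 without D7) over 25 genes. Without overlap, 5 were lower and 2 higher in null, against 11% and 12.9% of all genes. The most abundant, the saposin precursor Psap and the membrane protein Lamp1, had -0.11 (SE 0.19) and -0.10 (SE 0.22). Hexa, a hexosaminidase subunit, went from 3.37 to 4.16 in D7, 17.8 to 28.6 in D3 and 21.9 to 34.7 in E8 rescaled TPM. Null levels of Hexa went from 98.7 to 62 in 3F, 70.9 to 75.4 in D6 and 75.2 to 60 in 7F, with an interaction of -0.81 (SE 0.22, limma adjusted p = 0.172). Npc2, a carrier of cholesterol inside lysosomes, had -1.04 (SE 0.28, limma adjusted p = 0.172). Hexa and Npc2 were chosen after their values were seen.

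Transcript length moved with the genotype difference. Tested genes were divided into 10 bins of equal size by mean transcript length, and the median interaction was -0.27 in the shortest bin (up to 1077 bases), -0.11 in the next and 0.11 and 0.0923 in the longest ones. In the shortest bin the median change was -0.28 in 3F, -0.35 in D6 and -0.26 in 7F, against -0.0247 in D7, -0.12 in D3 and 0.0752 in E8. The shortest bin held 64 of the 79 ribosomal protein genes, 52 of the 64 histone genes, 17 of the 34 respiratory chain genes and 8 of the 31 proteasome genes, but 3 of the 37 mitosis and 0 of the 23 cholesterol genes. The part of length in the results of the short-gene lists was not tested.

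**Figure D5:**
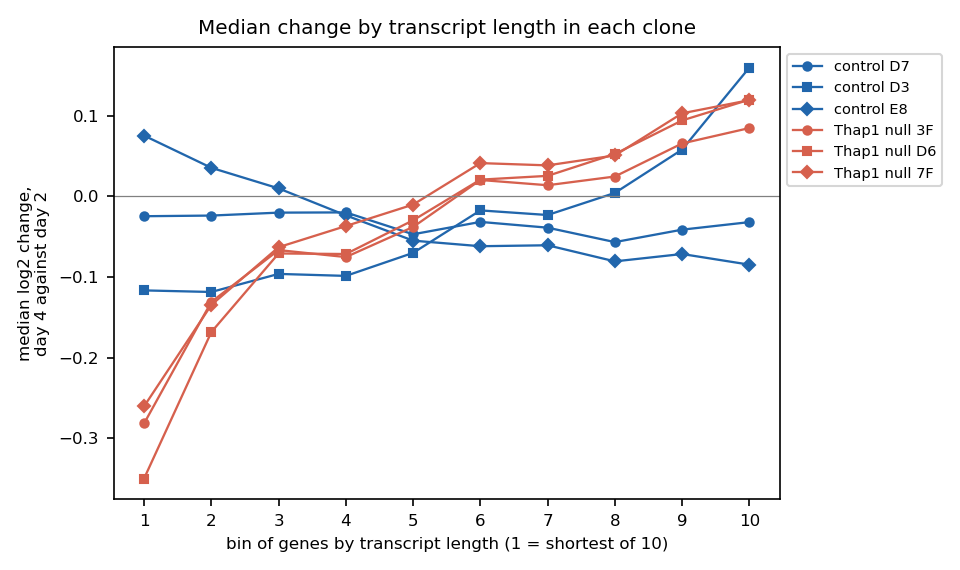
Median log2 change from DIV2 to DIV4 over the tested genes in each of 10 bins of transcript length, 1 line per clone, control in blue and Thap1 null in red. The 3 null clones run from below -0.26 in the shortest bin to above 0 in the longest, whereas the control clones follow no common course.

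Markers of other cell types were low or followed the clones. Of 13 astrocyte markers tested, 2 rose in control and 8 in null, against 1.96% and 7.49% of all genes. Without D7, 11 rose in control and 9 in null, against 976 and 1405 of all 10879 genes in that fit. The median interaction was 0.20, or -0.12 without D7. The median change was 0.0446 in D7, 1.16 in D3 and 1.62 in E8, and 1.78 in 3F, 1.39 in D6 and 1.48 in 7F. The summed level of the 16 astrocyte markers was 186, 649 and 446 rescaled TPM in D7, D3 and E8 and 487, 482 and 497 in 3F, D6 and 7F on day 2, and 168, 1262 and 1739 and 974, 933 and 988 on day 4. Gfap, the astrocyte intermediate filament, went from 0.0188 to 0.254 in D7, 27.1 to 147 in D3 and 27.1 to 338 in E8. Null levels of Gfap went from 2.87 to 119 in 3F, 9.25 to 113 in D6 and 4.59 to 196 in 7F, with an interaction of 2.43 (SE 0.82, limma adjusted p = 0.235), or 1.54 without D7. D7 had almost no Gfap on either day, while D3, E8 and all null clones had more on day 4. Vim, a filament gene shared with progenitors, and S100b, the most abundant, had 0.17 (SE 0.33) and 0.0531 (SE 0.19). Slc1a3, a glutamate transporter, had 0.40 (SE 0.43), or -0.0685 without D7, and the water channel Aqp4 was at most 0.286 in the null libraries. Gfap, Slc1a3 and Aqp4 were chosen after their values were seen, and the part of astrocyte-marked cells in the results above was not tested.

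Neural stem cell markers (6 tested) had a median interaction of -0.21, with Fabp7 at -0.21 (SE 0.31). Of the 17 neuron markers 4 passed the filter, with a median of 0.19 (0.37 without D7), and 13 had means under 1 rescaled TPM. Tubb3 and Map2, the most abundant and also found in oligodendrocytes, had 0.12 (SE 0.32) and 0.26 (SE 0.32). The 12 microglia markers summed to 3.04 to 3.66 rescaled TPM in control and 2.44 to 5.55 in null on day 2, and to 2.67 to 2.7 and 5.33 to 9.17 on day 4. P2ry12 and Cd68, the 2 that passed the filter, had 1.0 (SE 0.43) and 0.49 (SE 0.31). None of the 14 mesenchymal and endothelial markers reached the filter, and together they summed to at most 2.96 rescaled TPM in any library.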

How the data were processed

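Libraries were stranded and made from total RNA after removal of ribosomal RNA, per the labels' protocols. STAR, Picard and the build mm10 are named per the submitters' processing notes, with no role or version, and the quantifier, annotation release and filters are not given in the sources used here. The deposited values are TPM per transcript (93666 transcripts), which the authors scaled to 1000000 per library over all biotypes, so a large RNA class lowers all others. A length column in the deposited table, whose unit is not stated, was used only to describe genes.

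TPM was summed by gene name over 47103 protein-coding rows to 22305 genes, with 25 names that had become dates restored through transcript identifiers, and rescaled by median of ratios over the 12 libraries (13888 genes). Of the transcripts, 96.62% were found in GENCODE M21 (GRCm38), from which positions and shared 31-base words were taken. Tests used limma 3.58.1 in R 4.3.3 on log2(rescaled TPM + 1) for genes with a mean of at least 1 over the 12 libraries, with clone as a fixed block, eBayes with a mean trend, and Benjamini-Hochberg adjustment over all 10773 genes. The call threshold was an adjusted p of 0.05. Replicates are separate clones, the same on both days, and deviations from the group mean correlated between days with r of 0.226 to 0.66 in the same clone, so the days were paired. The scripts were tested on simulated data. Tables and plots used Python 3.11.15, numpy 2.4.6, pandas 2.3.3 and matplotlib 3.10.9.

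The comparison, the lists and the naming rule were chosen with earlier results of these data known. The rule names Thap1 and Gusb, then, for each direction of the interaction, 10 genes with a mean of at least 5 rescaled TPM and clone changes that do not overlap (filled by smallest p, since none was called), and in each list the 2 members with the highest mean. A gene named by this rule and a cholesterol gene are not reported here. The histone and ribosomal protein lists were added after values were seen. Alternatives were other scalings, pseudocount, filter, trend, block, 18 libraries and each clone left out. Depth is unknown, so no counting error is given.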

Additional observations from a re-analysis of the deposited data

Results flagged for a closer look

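Among the named genes, 20 moved one way in all 3 control clones and the other way in all 3 null clones. Many of the named genes were picked because their clone changes do not overlap, or after their values were seen. The count of 20 therefore follows in part from the selection. The difference was tested for each as the interaction, and none passed an adjusted p of 0.05. Their interactions were Hist1h2ae -2.77, Hist1h2ai -1.92, Hist1h2bf -1.68, Hist1h2ab -2.74, Hist1h2bb -2.98, Hist1h2bh -1.99, Hist1h3g -2.85, Hist1h2bk -1.72 and Hist1h1b -3.42 for the histone genes, and Cdc42ep3 1.36, Gbp3 1.0, Tmem201 0.96, Eps8 -1.62, Top2a -1.94, Ccng1 -0.84, Birc5 -1.97, Cks2 -1.92, Cdc45 -1.12, Cdkn2c -0.93 and Npc2 -1.04 for the others. Of all 10773 genes tested, 502 showed this pattern. The test for a single outlying sample was not run, since it is not used on groups of 3.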

How the results depend on the processing

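The interaction calls numbered 0 with the main settings, 65 on the deposited TPM (57 with a lower change in null and 8 with a higher one, all 65 with the same direction and an unadjusted p under 0.05 in the main analysis), 1 under quantile normalization and 1 without the replicate block, each time Hist1h2ae, and 0 under the other settings for all clones. With 1 clone left out they numbered 0 to 1. The cause of the 65 calls was not tested. Control calls (383) became 247 under quantile normalization, 95 with all biotypes, 0 without a filter, 46 without the replicate block, 62 with 18 libraries and 2 to 1838 with 1 clone left out. Null calls (1802) became 544 on the deposited TPM, 1105 with all biotypes, 856 without a filter, 549 without the replicate block, 612 with 18 libraries and 2 to 3015 with 1 clone left out. A genotype with 1 clone left out keeps 2 clones, so these fits have fewer samples. Without the filter no control call remained in the limma fit, and the smaller counts were not traced further.

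Interactions close to 0 changed sign. Under coding TPM scaled to its library sum the values were Ugt8a 0.14, Bub3 0.0388, Psap 0.0516, Lamp1 0.0636, Pgk1 0.12, Pkm 0.00156, Sfrp1 0.0324 and Thra 0.0486. All of these lay below 0.15, the median interaction of all genes on that scale. Under quantile normalization the values were Ugt8a 0.26, Psap 0.18, Lamp1 0.17, Pgk1 0.19, Pkm 0.10 and Thra 0.0384. Under all biotypes summed the values were Ugt8a 0.0166, Mcm7 -0.00446, Pgk1 0.00592 and Ifi27 0.0376. With 1 clone left out the ranges were Bcas1 -0.00223 to 0.33, Scd2 -0.0298 to 0.14, Ugt8a -0.49 to 0.47, Mcm7 -0.0617 to 0.15, Bub3 -0.33 to 0.13, Psap -0.25 to 0.0344, Lamp1 -0.26 to 0.0734, Pgk1 -0.21 to 0.11, Fos -0.0738 to 0.45, Sfrp1 -0.34 to 0.13, Thra -0.43 to 0.25, Klf9 -0.092 to 0.67, S100b -0.0886 to 0.20, Vim -0.16 to 0.53, Tubb3 -0.27 to 0.37, Map2 -0.10 to 0.47, Fabp7 -0.52 to 0.0157 and Slc1a3 -0.0685 to 0.72. Median interactions of lists also changed sign by more than the spread between clones. Under coding TPM scaled to its library sum they became 0.0444 for lysosomal and 0.16 for glycolysis genes, below and near the 0.15 of all genes on that scale. They became 0.30 for Wnt feedback genes at a mean of at least 5, and ranged from -0.085 to 0.43 for immediate early genes with 1 clone left out. Within that spread, sign changes gave ranges over all settings of -0.25 to 0.41 for OPC, -0.25 to 0.25 for premyelinating, -0.0915 to 0.16 for transcription factor, -0.0596 to 0.46 for inhibitor, -0.0948 to 0.24 for myelin lipid, -0.10 to 0.0828 for interferon, -0.12 to 0.60 for astrocyte, -0.25 to 0.0426 for neural stem cell genes. Interactions over 0.5 in size moved by more than 1.5 times to Bmp4 -2.31, Cdc45 -1.73, Col18a1 0.81, Ermn -2.33 and Trib3 1.06 with a pseudocount of 0.1, to Ndufa4 -0.32, Rps14 -0.45, Rps15a -0.29 and Rps3 -0.29 under quantile normalization, to Olig1 -0.85 without D3, to Ccnd1 -0.38, Ednrb -0.71 and Olig1 -0.30 without E8, to Ccnd1 -0.42 and Gpr17 0.44 without 3F and to P2ry12 0.48 without D6. The median interactions of the mitosis, histone, cholesterol, replication and ribosomal protein lists were below 0 under every setting, and that of the stress-response list was above 0. With 3 clones per genotype and unknown depth, genes at low TPM cannot be separated from counting error.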
